A study of Mus musculus with 10 samples.

Results

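Brain RNA of *Slc20a2* knockout mice treated with FTY720 was compared with that of placebo mice in the 6 of 10 libraries of the series whose mouse name carries the digit 3 after the group letter. The FTY720 mice were F3-609, F3-612 and F3-908, and the placebo mice were P3-612, P3-904 and P3-907. All mice of both groups were homozygous (HO) knockouts of *Slc20a2*, which encodes a sodium-dependent phosphate transporter, and wild type mice are not part of the comparison, so the values describe FTY720 on the knockout background alone. FTY720 was injected intraperitoneally at 0.5 mg/kg for 12 weeks from the age of 1.5 months, in DMSO, and the placebo was DMSO alone. The mice were perfused with PBS, and 1 part of each brain went into RNA while the other was fixed. The labels do not say which part, nor what the digit (3 here, 1 in the other 4 libraries) or the mouse number stands for.

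FTY720 acts on sphingosine-1-phosphate (S1P) receptors and holds lymphocytes in lymph nodes, which lowers the number of T cells that can reach the brain. S1P receptors are also found on brain endothelial cells, which form the blood-brain barrier by tight junctions, low vesicle transport and efflux pumps, and on astrocytes, microglia and oligodendrocytes, the cells that make myelin. Whole brain tissue holds all of these cells, and fewer cells of a type cannot be told apart from less RNA per cell.

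Between 16172806 and 18303981 fragments were counted on genes per mouse, and mitochondrial transcripts took 5.03% to 6.48% of them. Levels are given as CPM, the count divided by the scaled library size and set to a common total, for F3-609, F3-612 and F3-908 and then for P3-612, P3-904 and P3-907, always in this order. Fold changes are FTY720 over placebo on the log2 scale, with the standard error (SE) of edgeR's quasi-likelihood fit. No pair of libraries agreed within sampling noise, since chi-square divided by its degrees of freedom was 15.9 or more in all 15 pairs. Nothing in the labels ties the mice to separate litters or cages, so the p-values measure only the spread between these mice.

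Among 14734 protein-coding genes tested, 436 were higher and 736 lower with FTY720 at an unadjusted p under 0.05, the threshold used in the study, and these genes are called higher or lower in what follows, while a gene not called had a larger p. They were 1172 in all, 7.95% of the genes tested, with 2.96% called higher and 5.0% called lower, where 5.0% in all would be called if no gene differed. No gene of any biotype had an adjusted p under 0.05 (edgeR with Benjamini-Hochberg adjustment over 17656 genes, smallest 0.654), against 1283 at an unadjusted p under 0.05, and DESeq2 gave 5. The levels of the 3 FTY720 mice lay above all placebo mice in 1084 genes (7.36%) and below them in 959 (6.51%). For a single gene the exact permutation test over the 20 ways to choose 3 of 6 mice cannot give a p below 0.1, the value it gave for each gene whose groups did not overlap. The number of calls rested on single mice: it was 323 without F3-609, 340 without P3-907, 759 without P3-612 and 3501 without P3-904.

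Across all genes the fold change varied with base composition and gene length, though the slopes of single libraries overlapped between the groups. Genes were split into 10 equal bins. In the bin with the lowest GC content (median 39.6%) the median fold change was 0.16, with 164 genes called higher and 5 lower, and in the bin with the highest (59.9%) it was -0.27, with 2 higher and 325 lower. Across 14720 genes the Spearman correlation of the fold change was -0.549 with GC content and 0.425 with gene length. Genes share their libraries and are not replicates. The slope of a library's levels on GC content was lowest in F3-609, at -0.249 log2 units per 10% GC, and highest in P3-612 and P3-907, at 0.16 and 0.152, while F3-908 and P3-904 were near 0. With smooth trends on GC content and length removed from every library, 774 genes were called (5.26%), 306 higher (2.08%) and 468 lower (3.18%).

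**Figure D1:**
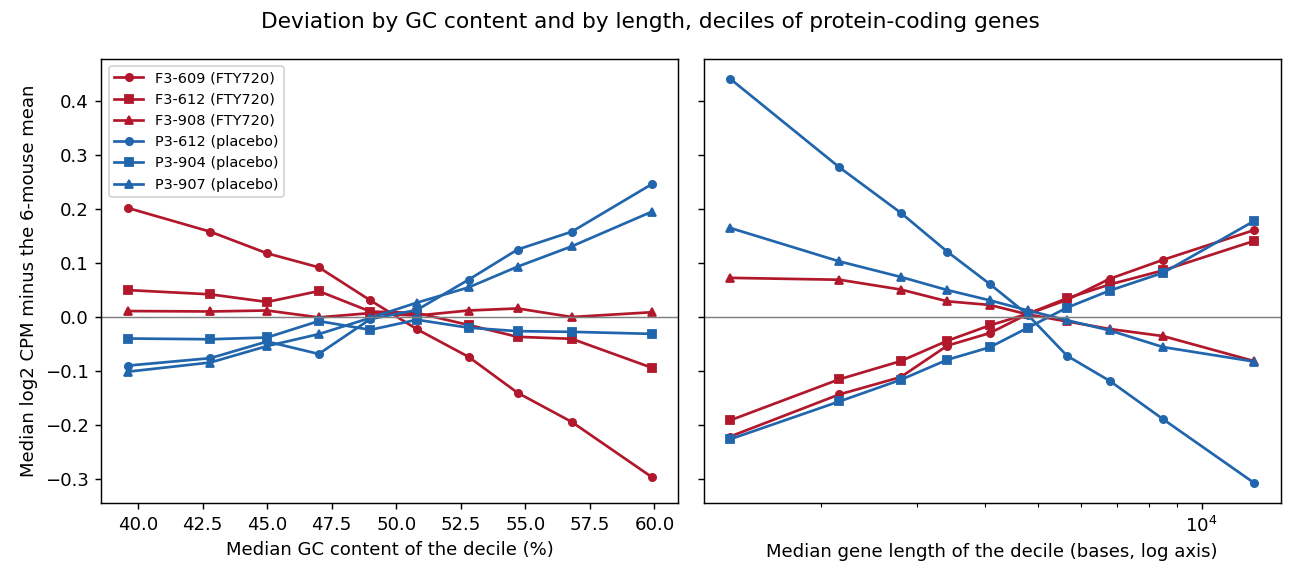
Median deviation of log2 CPM from the 6-mouse mean, over protein-coding genes grouped in 10 bins of GC content (left, %) and of gene length (right, bases, log axis), with 1 line per mouse. F3-609 falls with GC content and P3-612 and P3-907 rise with it, while on length P3-612 falls and F3-609, F3-612 and P3-904 rise.

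Sex and tissue content were checked before the gene groups. By *Xist* and the Y-linked genes, every mouse number that starts with 6 belonged to a male and every one that starts with 9 to a female, so that 2 of the 3 FTY720 mice and 1 of the 3 placebo mice were male. All 6 libraries held the cerebellum. *Gabra6*, a GABA receptor subunit of cerebellar granule cells, was at 177, 157 and 139 CPM with FTY720 and 134, 156 and 146 CPM with placebo, and the median fold change of 14 granule cell genes was -0.0046. Even so, 2 of them were called higher (14.3%, against 2.96% of all genes; 3 with the trends removed), *Cbln3*, a synaptic organizer, at 0.28 (SE 0.10) and the transcription factor *Neurod1* at 0.28 (SE 0.10), and neither call held without F3-609, without P3-907 or with the leading digit of the mouse number as a covariate.

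Some hindbrain genes were lower with FTY720. Of 18 hindbrain genes listed, mostly *Hox* genes, 13 were tested, and 4 were called lower (30.8%, against 5.0% of all genes) and none higher, with a median of -0.36. With the GC and length trends removed 2 were called lower, with a median of -0.23. There was 1 call without F3-609, without P3-612 or without P3-907, and 2 without F3-612 or with the leading digit as a covariate. *Hoxb5*, which patterns the caudal hindbrain and spinal cord, was at 2.65, 3.81 and 4.21 CPM with FTY720 and 5.21, 5.07 and 5.47 CPM with placebo. Its groups did not overlap, at a fold change of -0.56 (SE 0.22); an antisense transcript, *Hoxb5os*, overlaps it. *Hoxb8*, *Hoxa4* and *Hoxb3* followed at -0.97 (SE 0.34), -0.84 (SE 0.33) and -1.08 (SE 0.47), at low levels in every mouse. The level of a list is the mean over members of log2 CPM (after adding 0.1), each minus its 6-mouse mean. For the hindbrain list it was -0.17, -0.28 and -0.13 with FTY720 and 0.22, 0.13 and 0.24 with placebo. The part of these values in the gene groups that follow was not tested.

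The targeted gene was not called. *Slc20a2* (ENSMUSG00000037656, chromosome 8 from 22476788 to 22569612, GRCm38) was at 13.4, 15.1 and 14.1 CPM with FTY720 and 11.9, 17.1 and 13.5 CPM with placebo. The groups overlapped, with a fold change of -0.0008 (SE 0.16), and the count is not divided by exon, so it does not show the knockout.

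**Figure D2:**
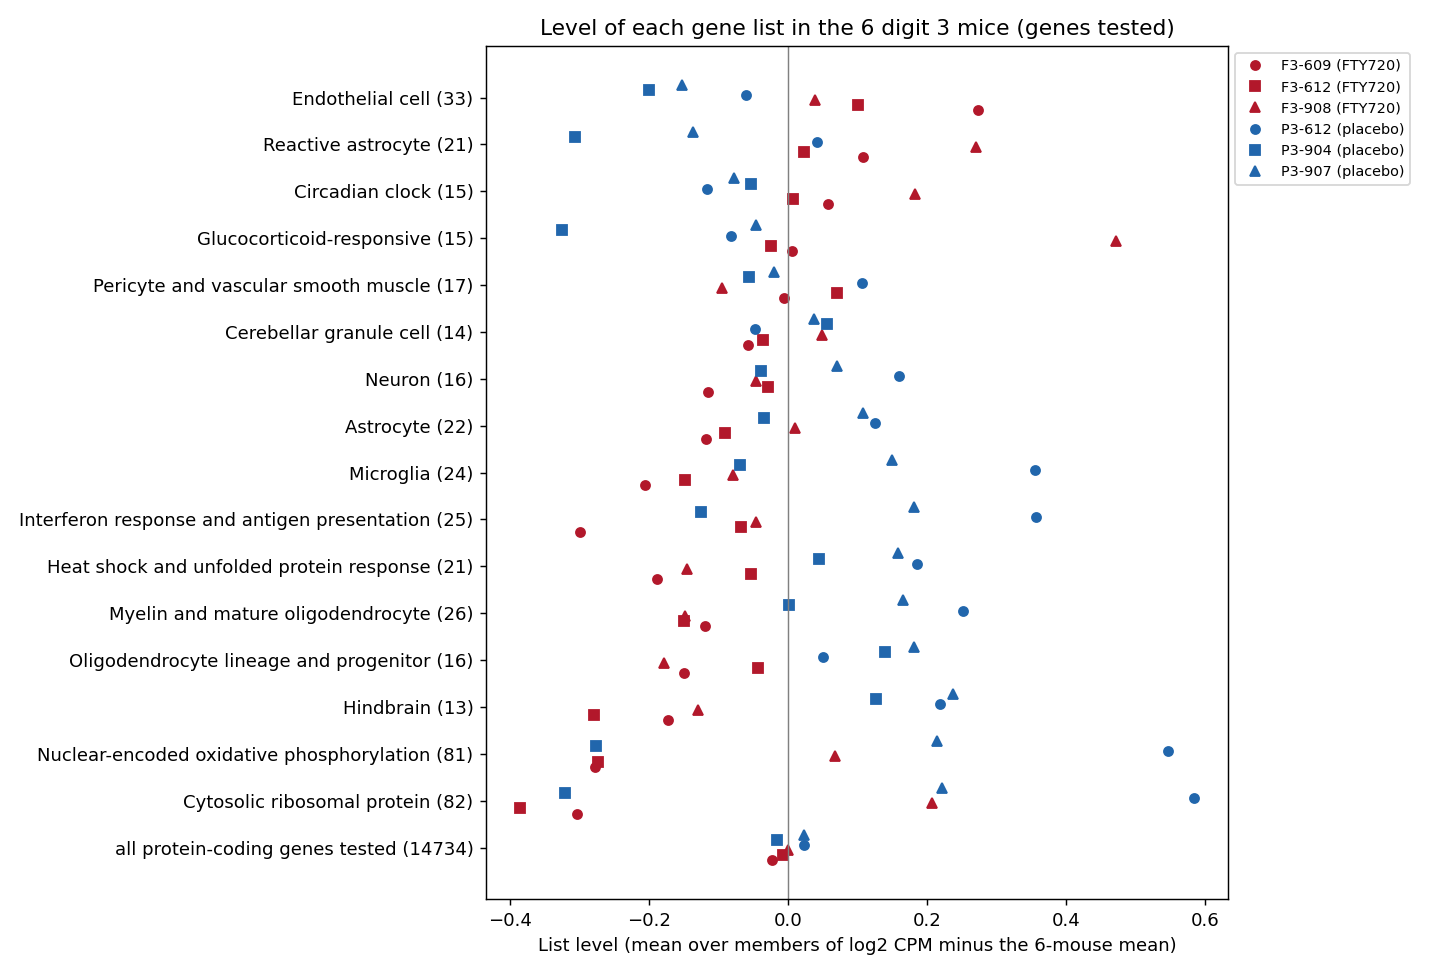
Level of each gene list drawn (x axis, mean over its tested members of log2 CPM minus the 6-mouse mean) in the 3 FTY720 mice (red) and the 3 placebo mice (blue), with the number of genes tested in parentheses. Not all lists are drawn. The red points lie to the right of the blue ones for the endothelial, circadian and glucocorticoid lists and to the left for the microglia, heat shock, myelin, oligodendrocyte lineage and hindbrain lists. They overlap in the others drawn.

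Part of the endothelial genes were called higher with FTY720. Of 33 endothelial cell genes tested, 9 were called higher (27.3%, against 2.96% of all genes) and none lower, 29 had a fold change above 0, and the median was 0.28, against -0.0078 over all genes. The list level was 0.27, 0.10 and 0.038 in the FTY720 mice and -0.061, -0.20 and -0.15 in the placebo mice, so the groups did not overlap, with F3-609 the highest. With the GC and length trends removed, 11 members were called higher and the median was 0.31. The count was 6 without F3-609 and 13 without F3-908, and with the leading digit of the mouse number, which follows sex, as a covariate it was 6.

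The largest differences among the called endothelial genes were in transporters of the capillary wall. *Slco1a4* (ENSMUSG00000030237, chromosome 6 from 141805440 to 141856199), an organic anion transporter of brain capillaries, was at 93.9, 59.7 and 59.7 CPM with FTY720 and 38.2, 39.0 and 36.8 CPM with placebo. The 3 placebo mice lay close together and below every FTY720 mouse, and the fold change was 0.91 (SE 0.18). *Abcb1a* (ENSMUSG00000040584, chromosome 5 from 8660077 to 8748575), the P-glycoprotein efflux pump of the barrier, was at 48.3, 38.7 and 31.6 CPM and 21.6, 27.9 and 22.2 CPM. Its groups did not overlap either, with a fold change of 0.73 (SE 0.18); the annotated gene *Gm42686* overlaps it. The second efflux pump of the list, *Abcg2*, had 25.3, 22.3 and 21.6 CPM against 17.9, 13.6 and 16.9 CPM. It was called higher at 0.52 (SE 0.15), but was at 0.27 and not called with the GC and length trends removed.

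Surface receptors and adhesion proteins of endothelial cells were called as well. *Pecam1* (ENSMUSG00000020717, chromosome 11 from 106654217 to 106750628), the junctional adhesion molecule CD31, was at 21.1, 23.8 and 21.5 CPM with FTY720 and 15.8, 15.5 and 13.7 CPM with placebo. The spread within a group was narrow beside the gap between them, and the fold change was 0.56 (SE 0.13). *Tek* (ENSMUSG00000006386, chromosome 4 from 94739289 to 94874976), the angiopoietin receptor TIE2, was at 17.4, 14.2 and 12.4 CPM and 9.75, 10.9 and 9.84 CPM, without overlap, and the fold change was 0.52 (SE 0.16). *Ly6c1*, a surface antigen of brain endothelium, differed by 0.52 (SE 0.15), the sialomucin *Podxl* by 0.41 (SE 0.15) and the adhesion receptor *Adgrl4* by 0.52 (SE 0.20), the last with overlapping groups. *Flt1*, a VEGF receptor, was called at 0.61 (SE 0.24), with a difference of 1.17 within the mice whose number begins with 6 and -0.071 within those whose number begins with 9.

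Not all endothelial markers moved this way. *Cldn5*, the main tight junction claudin of the barrier, was at 23.0, 29.5 and 31.8 CPM with FTY720 and 44.0, 27.2 and 32.4 CPM with placebo, a fold change of -0.30 (SE 0.20). *Cdh5*, the VE-cadherin of endothelial junctions, was at 13.4, 14.7 and 9.39 CPM and 7.12, 9.38 and 10.7 CPM, a fold change of 0.46 (SE 0.22). Neither was called, and in both the groups overlapped. *Adgrf5* and *Cyyr1* are no members of the list and were among the genes with the smallest p: *Adgrf5*, an adhesion receptor of vessels, had 44.6, 40.6 and 31.8 CPM against 18.5, 27.2 and 22.5 CPM, without overlap, at 0.78 (SE 0.18).

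The bases before the start of 4 called genes are printed to set the endothelial genes beside the oligodendrocyte genes described next. They are 250 bases each from RefSeq (GRCm38.p6), read in the direction of the gene and ending just before its RefSeq start, for *Slco1a4* at chr6:141856221-141856470 on the minus strand, *Tek* at chr4:94739039-94739288, *Gal3st1* at chr11:3983386-3983635 (the most upstream of 3 starts) and *Olig2* at chr16:91225300-91225549, the last 3 on the plus strand. The RefSeq start of *Olig2* lies downstream of the start of the counted gene given below, so the end of its window lies inside that gene. Capitals mark AGGAAG, the core letters bound by ETS factors, and ACAAAG, a motif of SOX factors, on either strand.
Slco1a4: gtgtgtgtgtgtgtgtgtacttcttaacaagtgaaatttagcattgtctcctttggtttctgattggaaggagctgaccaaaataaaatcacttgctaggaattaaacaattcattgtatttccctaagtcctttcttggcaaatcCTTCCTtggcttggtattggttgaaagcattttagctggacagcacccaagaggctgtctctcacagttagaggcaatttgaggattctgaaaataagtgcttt
Tek: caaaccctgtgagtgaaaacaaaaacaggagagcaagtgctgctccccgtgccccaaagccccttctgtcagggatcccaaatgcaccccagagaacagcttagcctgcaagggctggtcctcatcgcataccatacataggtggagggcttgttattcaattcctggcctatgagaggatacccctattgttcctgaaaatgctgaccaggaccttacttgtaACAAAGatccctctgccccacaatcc
Gal3st1: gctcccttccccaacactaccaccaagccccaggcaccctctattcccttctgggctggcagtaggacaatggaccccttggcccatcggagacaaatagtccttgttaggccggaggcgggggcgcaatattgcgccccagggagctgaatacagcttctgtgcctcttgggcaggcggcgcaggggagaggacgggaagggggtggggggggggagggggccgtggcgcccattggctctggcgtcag
Olig2: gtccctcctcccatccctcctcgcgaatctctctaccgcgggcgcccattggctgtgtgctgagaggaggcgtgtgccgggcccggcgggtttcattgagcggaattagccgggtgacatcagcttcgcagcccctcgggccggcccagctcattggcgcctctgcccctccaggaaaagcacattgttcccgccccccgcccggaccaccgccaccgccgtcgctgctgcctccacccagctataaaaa
The GC content of these windows was 39.2% for *Slco1a4*, 51.2% for *Tek*, 65.6% for *Gal3st1* and 66.8% for *Olig2*. *Slco1a4* held AGGAAG on the reverse strand, 104 bases before the start, and *Tek* held ACAAAG on the forward strand, 26 bases before it, while neither motif was in the other windows. Of the 9 endothelial genes called higher, 7 had windows in the table, and 8 of their 10 windows (80.0%) held AGGAAG and 3 (30.0%) ACAAAG, where 29.5% and 16.5% of all 32851 windows did. Of the 10 myelin genes called lower, 7 had windows, and 7 of 14 (50%) held AGGAAG and 6 (42.9%) ACAAAG. These are counts of letters and not of bound sites. Endothelial and myelin genes that were not called were not counted. Whether the shares go with the calls or with the lists as a whole was therefore not tested. Several windows of the same gene were counted separately, though they are not independent.

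Vessel wall genes other than endothelial ones did not move together. Of 17 pericyte and smooth muscle genes tested, 3 were called higher (17.6%, against 2.96% of all genes) and none lower, while 11 of the 17 had a fold change below 0 and the median was -0.044. After removal of the trends 3 were again called higher, with a median of 0.056. *Rgs5* (ENSMUSG00000026678, chromosome 1 from 169655501 to 169695813), a G-protein regulator of pericytes, was at 102, 91.9 and 67.7 CPM with FTY720 and 58.0, 53.6 and 55.9 CPM with placebo. The groups did not overlap, and the fold change was 0.64 (SE 0.15). *Myh11*, the smooth muscle myosin heavy chain, had 4.99, 4.996 and 3.60 CPM against 2.15, 2.56 and 2.60 CPM, also without overlap, at 0.89 (SE 0.23). *Pdgfrb*, the pericyte receptor mutated in some families with brain calcification, was called at 0.30 (SE 0.13) and was the only one of the 13 calcification genes tested that was called (7.69%, against 2.96% of all genes). It was not called with the leading digit as a covariate, nor with any 1 mouse other than P3-904 left out.

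The adhesion molecules that draw leukocytes to vessels gave 1 call. Of 11 tested of 14 listed, *Pecam1* was called higher (9.09%, against 2.96% of all genes), and the median was 0.089, with 1 call and 0.002 after removal of the trends. *Icam1*, which binds leukocyte integrins, was at 3.45, 3.21 and 2.499 CPM with FTY720 and 2.88, 2.45 and 1.55 CPM with placebo, a fold change of 0.42 (SE 0.29). *Vcam1*, its partner for other integrins, was at 36.7, 35.1 and 32.2 CPM and 36.4, 30.2 and 33.3 CPM, a fold change of 0.059 (SE 0.12). In both the groups overlapped. *Sele* and *Selp*, the selectins of activated endothelium, had 0 to 8 counts in every mouse and were not tested.

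Junction and vesicle transport genes went both ways. Of 27 tested, 3 were called higher and 2 lower (11.1% and 7.41%, against 2.96% and 5.0% of all genes), with a median of 0.053, and 4 and 1 with the trends removed. None was called lower without F3-609, F3-612, P3-612 or P3-907, and with the leading digit as a covariate 2 were called higher and none lower. Without F3-609 1 was called higher, and without P3-612 2. *Tfrc*, the transferrin receptor, was at 193, 148 and 182 CPM with FTY720 and 129.8, 136 and 121 CPM with placebo, without overlap, at 0.44 (SE 0.12). The caveolar coat gene *Cavin2* and the claudin *Cldn12* were called higher at 0.46 (SE 0.16) and 0.27 (SE 0.12), and the clathrin light chain *Cltb* and the kinase *Src* were called lower at -0.37 (SE 0.15) and -0.31 (SE 0.12). With the GC and length trends removed, *Cldn12* and *Src* were no longer called, at 0.18 and -0.11. *Mfsd2a*, a lipid transporter that holds down transcytosis, had 18.8, 16.5 and 23.7 CPM against 16.0, 16.1 and 16.0 CPM, at 0.30 (SE 0.16), and was not called, nor were *Cav1*, *Ocln*, *Tjp1* and *Cltc*, at 0.20, 0.28, 0.20 and 0.19.

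Of 13 VEGF and angiopoietin genes tested, the receptors *Tek* and *Flt1* were called higher and the ligands *Vegfa* and *Vegfb* lower (15.4% in each direction, against 2.96% and 5.0% of all genes). The fold change was above 0 in 10 of the 13, ligands among them, and the median was 0.24, or 0.061 with the trends removed. Without F3-609 or without P3-907 1 was called in each direction. *Vegfa* was at 69.6, 83.1 and 70.2 CPM with FTY720 and 104, 90.3 and 104 CPM with placebo, so that every FTY720 mouse was below every placebo mouse, at -0.42 (SE 0.12). After removal of the GC and length trends *Vegfa* was at -0.40 and still called, and *Vegfb*, as fitted at -0.51 (SE 0.17), was at -0.12 and no longer called.

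Part of the myelin genes were called lower with FTY720. Of 26 myelin and mature oligodendrocyte genes tested, 10 were called lower (38.5%, against 5.0% of all genes) and none higher, 22 had a fold change below 0, and the median was -0.22. The list level was -0.12, -0.15 and -0.15 with FTY720 and 0.25, 0.0017 and 0.17 with placebo, with P3-904 the closest of the placebo mice to the FTY720 mice. The trends on GC content and length left 10 called lower, with a median of -0.17. Leaving out 1 mouse gave between 8 and 13 calls.

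A gene of myelin lipids and a gap junction gene were among the called members. *Gal3st1* (ENSMUSG00000049721, chromosome 11 from 3983636 to 3999326), the sulfotransferase that makes sulfatide, was at 11.6, 11.8 and 12.1 CPM with FTY720 and 19.8, 15.9 and 19.4 CPM with placebo. The 3 FTY720 mice were close together and below all placebo mice, and the fold change was -0.63 (SE 0.14). *Gjb1* (ENSMUSG00000047797, chromosome X from 101376378 to 101385629), which encodes connexin 32, was at 14.0, 15.05 and 17.0 CPM and 26.6, 20.3 and 26.1 CPM. It was lower in all 3 FTY720 mice than in any placebo mouse, at -0.67 (SE 0.15). *Gjc3*, which also encodes a connexin, was not called, at -0.045 (SE 0.13).

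Structural myelin proteins showed smaller differences. *Mag*, the adhesion protein of the inner myelin layer, was at 125, 160.0 and 150.4 CPM with FTY720 and 236, 181 and 228 CPM with placebo, at -0.57 (SE 0.14). *Mbp*, myelin basic protein, was at 2397, 2406 and 2695 CPM and 3601, 2819 and 3352 CPM, at -0.38 (SE 0.12). In neither did the groups overlap. The enzyme *Cnp* was called at -0.46 (SE 0.13), and its exons overlap those of *Dnajc7*. Also called were *Ppp1r14a*, *Pllp*, *Opalin* and *Fa2h*, at fold changes of -0.95, -0.48, -0.56 and -0.32. *Mog*, a glycoprotein of the outer myelin surface, was not called, at -0.22 (SE 0.13). *Chadl* (ENSMUSG00000063765, chromosome 15 from 81678296 to 81697287), a leucine-rich repeat protein, had the smallest p of the genes called lower, with 9.79, 9.63 and 11.3 CPM against 19.0, 15.8 and 18.1 CPM at -0.78 (SE 0.15); it lies within *L3mbtl2* and shares exon sequence with it.

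Some genes of the oligodendrocyte lineage were called lower. Of 16 lineage and progenitor genes tested, 5 were called lower (31.3%, against 5.0% of all genes) and none higher, with a median of -0.34 and list levels of -0.15, -0.043 and -0.18 with FTY720 and 0.05, 0.14 and 0.18 with placebo. *Olig2* (ENSMUSG00000039830, chromosome 16 from 91225457 to 91228677), which sets oligodendrocyte fate, was at 20.4, 25.8 and 26.9 CPM with FTY720 and 35.6, 35.5 and 41.3 CPM with placebo. The highest FTY720 mouse was well below the lowest placebo mouse, and the fold change was -0.62 (SE 0.14). *Olig1* had 94.9, 129 and 124 CPM against 198, 131 and 192 CPM, the groups only just apart, at -0.59 (SE 0.18). *C1ql1*, a secreted factor of progenitors, *Bcas1*, a marker of myelinating cells, and *Sox10*, the lineage factor, were called at -0.65 (SE 0.18), -0.37 (SE 0.11) and -0.33 (SE 0.13). The median GC content of the list was 52.3%, against 49.9% over all genes. After the trends were removed 4 members were called and the median was -0.17. *Olig2* was at -0.39 and still called, and *C1ql1* and *Sox10* were at -0.16 and -0.03 and no longer called. *Sox3*, a factor of neural progenitors, was among the 12 genes called lower with the smallest p, from 0.714 to 1.46 CPM with FTY720 against 2.39 to 3.70 CPM with placebo, at -1.55 (SE 0.35).

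**Figure D3:**
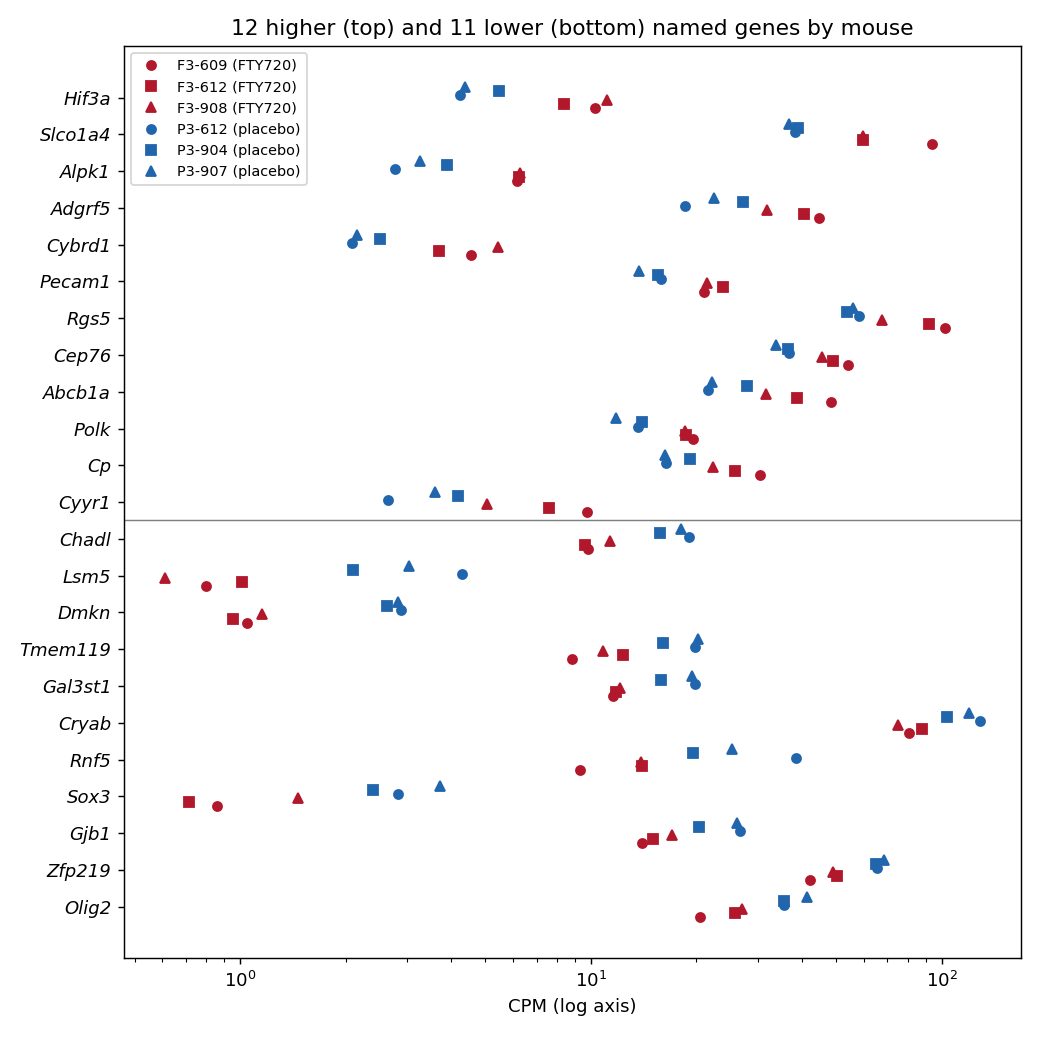
CPM (log axis) of the 12 genes called higher (top) and 11 of those called lower (bottom) with the smallest p among genes of at least 1 CPM whose groups do not overlap, with 1 point per mouse, FTY720 in red and placebo in blue. The lack of overlap is part of the rule, and the levels run from under 1 CPM (*Lsm5* and *Sox3* with FTY720) to above 100 CPM (*Rgs5* and *Cryab*).

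Microglial genes lay below 0 and some were called lower, while the receptors *Cx3cr1* and *P2ry12* were not called. Of 24 tested, 6 were called lower (25.0%, against 5.0% of all genes) and none higher, 23 had a fold change below 0, and the median was -0.21. *Tmem119* (ENSMUSG00000054675, chromosome 5 from 113793729 to 113800516), a surface marker of microglia, was at 8.86, 12.4 and 10.9 CPM with FTY720 and 19.8, 16.0 and 20.2 CPM with placebo, without overlap, at -0.80 (SE 0.17). *Trem2*, a receptor for lipids and debris, had 9.85, 10.5 and 11.8 CPM against 19.8, 11.9 and 15.8 CPM, with F3-908 and P3-904 nearly equal, at -0.56 (SE 0.20). *Selplg*, *Fcrls*, *Olfml3* and the complement subunit *C1qa* were called at fold changes of -0.51, -0.47, -0.55 and -0.76. *Cx3cr1*, the fractalkine receptor, was at 40.8, 42.7 and 45.7 CPM and 42.3, 43.4 and 44.3 CPM, a fold change of -0.0089 (SE 0.11). *P2ry12*, the purine receptor of resting microglia, was at -0.18 (SE 0.12).

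The microglial list level was -0.21, -0.15 and -0.079 with FTY720 and 0.35, -0.069 and 0.15 with placebo, and P3-612 stood above the rest. Without P3-612 there was 1 call and the median was -0.12, without F3-609 there were 2, without P3-907 3, and without P3-904 11. Removing the GC and length trends gave 7 calls and a median of -0.23.

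Some antigen presentation genes were lower. Of 25 interferon response and antigen presentation genes tested, 4 were called lower (16.0%, against 5.0% of all genes) and none higher, with a median of -0.17 and overlapping list levels. With the trends removed 3 were called lower, with a median of -0.10. *H2-Ab1*, an MHC class II chain, was at 0.739, 1.49 and 1.16 CPM with FTY720 and 4.42, 1.86 and 3.09 CPM with placebo, at -1.46 (SE 0.40). *Cd74*, the MHC class II invariant chain, was at 4.001, 6.90 and 5.24 CPM and 11.9, 7.80 and 7.68 CPM, at -0.76 (SE 0.25). For both the highest FTY720 mouse was below the lowest placebo mouse, by a narrow margin. *H2-Eb1* and *Ifi27* were called at -0.99 (SE 0.40) and -0.41 (SE 0.18), with overlap. Without F3-609 or without P3-612 the list had 1 call, and without P3-904 it had 9.

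T cells, on which FTY720 is known to act, left few reads. Of 19 T cell genes listed, 7 were tested. The receptor chain *Cd3e* had 9, 6 and 3 counts with FTY720 and 5, 3 and 9 with placebo, *Cd3d* had 0 to 2 in every mouse, and *Cd8a* had 3, 11 and 1 against 1, 0 and 2. A difference in T cell number was not detectable at this depth from these genes. *Cd4*, which microglia and other myeloid cells also transcribe, was at 0.14 (SE 0.24). *Trat1*, which encodes a transmembrane adaptor of T cells, was the only list member called, higher at 1.35, 1.31 and 1.52 CPM against 0.491, 0.641 and 0.221 CPM, from 22, 22 and 25 counts against 8, 11 and 4, at 1.62 (SE 0.43). It passed the filter on low counts through the FTY720 mice, so the call is no support for a difference in T cells. Of 5 B cell genes, 1 was tested and not called.

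Reactive astrocyte genes were partly higher. Of 21 tested of 24 listed, 4 were called higher (19.0%, against 2.96% of all genes) and none lower, with a median of 0.17, and the list levels overlapped. *Serpina3n*, a protease inhibitor of reactive astrocytes, was at 40.7, 35.4 and 65.4 CPM with FTY720 and 34.0, 21.2 and 29.7 CPM with placebo, F3-908 far above the rest, at 0.74 (SE 0.25). *Cp* (ENSMUSG00000003617, chromosome 3 from 19957054 to 20009145), the iron oxidase ceruloplasmin, was at 30.3, 25.8 and 22.3 CPM and 16.4, 19.2 and 16.2 CPM, without overlap, at 0.60 (SE 0.15); its exons overlap those of *Hps3*. *B3gnt5*, a glycosyltransferase, and *Osmr*, the oncostatin M receptor, were called at 0.62 (SE 0.17) and 0.58 (SE 0.20). *Gfap*, the intermediate filament of astrocytes, was at 301, 337 and 425 CPM and 404, 293 and 388 CPM, a fold change of -0.031 (SE 0.17), so it did not follow these genes. With the trends removed 6 members were called and the median was 0.21. Of 22 astrocyte genes, 3 were called lower (13.6%, against 5.0%), *Mlc1*, *Cldn10* and *Acsbg1*, at -0.37, -0.42 and -0.25. With the trends removed 3 astrocyte genes were called lower, but *Acsbg1*, at -0.12, was not among them. No member was called without F3-609, without F3-612 or without P3-907, and 8 were without P3-904.

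Some chaperones of the endoplasmic reticulum and heat shock genes were lower. Of 21 tested, 7 were called lower (33.3%, against 5.0% of all genes) and none higher, with a median of -0.19 and list levels of -0.19, -0.054 and -0.14 with FTY720 and 0.18, 0.044 and 0.16 with placebo. *Manf*, a secreted factor induced by unfolded proteins, was at 29.1, 32.2 and 28.1 CPM with FTY720 and 41.5, 37.0 and 41.1 CPM with placebo, at -0.42 (SE 0.12). *Sdf2l1*, a luminal chaperone partner, was at 5.60, 7.61 and 6.52 CPM and 10.7, 9.84 and 9.73 CPM, at -0.62 (SE 0.17). Both were lower in every FTY720 mouse than in any placebo mouse. *Calr*, *Creld2*, *Dnajb1*, *Hspa1a* and *Trib3* were called at -0.32, -0.43, -0.26, -0.65 and -1.27; *Hspa1a* shares nearly all of its sequence with *Hspa1b*, which was at -0.20 (SE 0.21). *Cryab* (ENSMUSG00000032060, chromosome 9 from 50751325 to 50756636), a small heat shock protein abundant in oligodendrocytes and astrocytes, was outside the list and called with 80.6, 87.8 and 74.9 CPM against 128, 104 and 120.0 CPM, at -0.53 (SE 0.12); its neighbour *Hspb2* overlaps it. The list had 3 calls without F3-609 or without P3-907, 8 without P3-904 and 4 with the leading digit as a covariate, and 7 were called lower and 1 higher after the trends were removed.

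Of the S1P receptors, *S1pr1*, *S1pr2*, *S1pr3* and *S1pr5* were tested and not called, and *S1pr4*, with 13, 10 and 6 counts against 9, 7 and 8, was below the filter and not tested. *S1pr1*, the main receptor of endothelial cells and astrocytes, was at 139, 132 and 123.02 CPM with FTY720 and 154, 141 and 156 CPM with placebo, a fold change of -0.19 (SE 0.10). The 3 FTY720 mice were below the 3 placebo mice, P3-904 and F3-609 being nearly equal, and with the GC and length trends removed *S1pr1* was called lower, at -0.19. *S1pr5*, the receptor of oligodendrocytes, was at 15.4, 21.2 and 23.3 CPM and 24.2, 20.8 and 23.8 CPM, with overlap, at -0.20 (SE 0.17), and *S1pr2* and *S1pr3* were at 0.14 (SE 0.26) and 0.18 (SE 0.16). Of the 23 receptor and metabolism genes tested, the ceramidases *Acer2* and *Asah1* were called higher, at 0.43 (SE 0.16) and 0.28 (SE 0.11), and the S1P-making kinase *Sphk2* lower, at -0.40 (SE 0.16), with overlapping groups. These were 8.70% called higher and 4.35% lower, against 2.96% and 5.0% of all genes. No member of the list was called without F3-609 or without P3-907. None of these 3 was called with the trends removed, at 0.33, 0.19 and -0.21, and *Sphk2* overlaps *Dbp* and *Rpl18*.

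Of 24 mineralization and ossification genes tested, 1 was called higher and 2 lower (4.17% and 8.33%, against 2.96% and 5.0% of all genes). *Nt5e*, which makes adenosine from AMP and whose loss calcifies arteries, was called higher at 10.9, 10.2 and 11.7 CPM against 8.65, 8.27 and 7.68 CPM, without overlap, at 0.41 (SE 0.15). It was not called with the GC and length trends removed, without F3-908 or without P3-907. *Fgf18*, a growth factor of cartilage and bone, and *Mmp14*, a membrane protease, were called lower at -0.81 (SE 0.28) and -0.33 (SE 0.14). Neither was called without P3-907, and 1 was without F3-609 or without F3-908. The list lay mostly below 0, in 20 of 24 genes, with a median of -0.25. The trends removed, none was called higher and 3 lower, with a median of -0.21. The phosphate exporter *Xpr1*, the ligand *Pdgfb* and *AI464131* (the gene named *Myorg* in newer releases), which carry mutations in families with brain calcification, were at 0.16 (SE 0.14), -0.04 (SE 0.12) and -0.14 (SE 0.13).

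Of 38 PI3K, AKT and mTOR genes, 2 were called higher (5.26%, against 2.96% of all genes), the kinase *Sgk1* and the transcription factor *Foxo3*, at 0.51 (SE 0.16) and 0.24 (SE 0.11), and 3 lower (7.89%, against 5.0%), *Akt2*, *Akt1s1* and *Bad*, at -0.36, -0.47 and -0.56, with a median of 0.07. With the trends removed 2 were called higher and 1 lower. Of 43 autophagy genes, *Stx17*, the autophagosome syntaxin, was called higher at 0.29 (SE 0.13) and *Map1lc3a*, which coats autophagosomes, and the protease *Atg4d* were lower at -0.50 (SE 0.19) and -0.33 (SE 0.14), with a median of 0.012. These shares of 2.33% and 4.65% were below those of all genes, and with the trends removed 2 were called higher and none lower. No autophagy gene was called without F3-609, and in the PI3K list 1 gene was called higher and none lower without F3-609 or without P3-907, against 11 and 6 without P3-904. Without P3-612 the PI3K median was -0.041, with 13 genes above 0, against 23 as fitted. With the leading digit as a covariate 1 PI3K gene was called higher and 1 lower. In the autophagy list 1 was then called lower and none higher.

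Genes of the respiratory chain and the ribosome lay mostly below 0, with a wide spread between mice. Of 81 nuclear-encoded oxidative phosphorylation genes tested, 18 were called lower (22.2%, against 5.0% of all genes) and none higher, and 77 had a fold change below 0, with a median of -0.34. List levels were -0.28, -0.27 and 0.067 with FTY720 and 0.55, -0.28 and 0.21 with placebo, so that P3-904 lay with F3-609 and F3-612. *Uqcr11*, a subunit of complex III, was at 20.6, 24.4 and 34.3 CPM with FTY720 and 75.5, 33.0 and 53.5 CPM with placebo, at -1.03 (SE 0.29). Its groups overlapped, as they did in each of the other 17. The number called was 1 without F3-609 or without F3-612, 3 without P3-612, 5 without P3-907, 28 without F3-908 and 64 without P3-904, and with the trends removed 20 were called lower and 1 higher, while 9 were lower with the leading digit as a covariate. Of 82 ribosomal protein genes, 6 were called lower (7.32%, against 5.0% of all genes) and 81 were below 0, with a median of -0.34. Over all 14734 genes, 7575 were below 0. The ribosomal list levels were -0.30, -0.39 and 0.21 with FTY720 and 0.58, -0.32 and 0.22 with placebo, with overlap. With the trends removed 4 ribosomal genes were called lower and 1 higher. Without P3-904 60 were called lower, and without F3-908 32. None was called lower without F3-609, F3-612, P3-612 or P3-907 or with the leading digit as a covariate. Without F3-612 2 were called higher. The ribosomal RNA-like transcripts were lowest in F3-609 and F3-612, at 0.0894% and 0.0896% of counts, against 0.169% to 0.359% in the other 4 mice; their part in these results was not tested.

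Several of the 24 genes named by the smallest p belong to none of the lists above. *Hif3a* (ENSMUSG00000004328, chromosome 7 from 17031507 to 17062427), an inhibitory member of the hypoxia-inducible factors, was at 10.3, 8.39 and 11.1 CPM with FTY720 and 4.23, 5.47 and 4.37 CPM with placebo. It had the smallest p of the genes called higher, at 1.08 (SE 0.19), and stayed at 1.08 with the trends removed. *Lsm5* (ENSMUSG00000091625, chromosome 6 from 56701063 to 56704710), a subunit of a ring that binds U6 snRNA, was at 0.800, 1.01 and 0.610 CPM and 4.29, 2.10 and 3.04 CPM, from 13, 17 and 10 counts against 70, 36 and 55. Its fold change of -1.95 (SE 0.37) was the lowest of the 24. *Dmkn* (ENSMUSG00000060962, chromosome 7 from 30763756 to 30781063), a secreted protein named for skin, was at 1.05, 0.952 and 1.16 CPM and 2.88, 2.62 and 2.82 CPM, at -1.39 (SE 0.27). Both are genes of few counts, and in neither did the groups overlap.

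*Alpk1*, a kinase that senses a bacterial sugar, *Cybrd1*, an iron reductase, *Cep76*, a centriole protein, *Polk*, a DNA polymerase, and *Cyyr1* were called higher, at 0.91 (SE 0.20), 1.02 (SE 0.24), 0.48 (SE 0.12), 0.53 (SE 0.13) and 1.10 (SE 0.28). *Alpk1* had 6.15, 6.24 and 6.28 CPM with FTY720, nearly the same in all 3 mice, against 2.76, 3.90 and 3.26 CPM with placebo. The ubiquitin ligase *Rnf5* and the zinc finger gene *Zfp219* were called lower at -1.16 (SE 0.26) and -0.49 (SE 0.11), and both have exons that overlap other annotated genes. Each of the 24 had an adjusted p of 0.654 (edgeR). Each was called without any 1 mouse, with DESeq2 and limma-voom, with the GC and length trends removed and with the leading digit of the mouse number as a covariate, and 23 of 24 with the trends and the leading digit together, *Zfp219* being the exception. All were chosen by p and by groups that do not overlap, so this says how far the choice rests on 1 mouse or setting and adds no evidence for them.

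**Figure D4:**
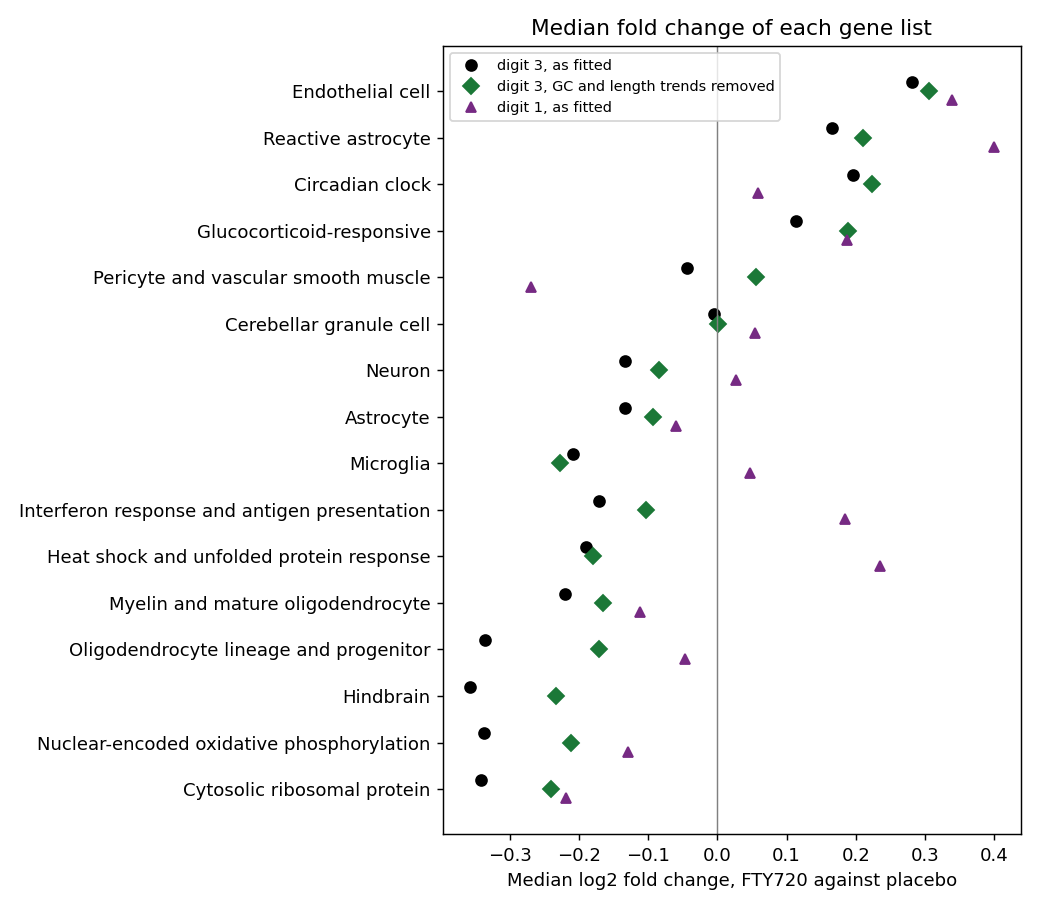
Median log2 fold change (FTY720 against placebo) of each gene list in the digit 3 mice as fitted (black), with the GC and length trends removed (green), and in the digit 1 mice (purple; 3 FTY720 mice and 1 placebo mouse). The endothelial and reactive astrocyte medians are above 0 in all 3, the myelin, oligodendrocyte lineage, respiratory chain and ribosome medians are below 0 in all 3 (the digit 1 values as fitted, where removal of the trends turns the lineage median to 0.055), and the microglia, interferon and heat shock medians are below 0 in the digit 3 mice and above 0 in the digit 1 mice.

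The other 4 mice, which do not enter the comparison above, gave a second estimate with different samples. Their libraries held next to no cerebellar granule cell RNA, with 1, 1 and 4 counts of *Gabra6* in the 3 FTY720 mice and 1 in the single placebo mouse, whose spread was assumed to equal that of the other groups. There, 605 of 15420 protein-coding genes were called (3.92%), and none had an adjusted p under 0.05 with edgeR or DESeq2. Of the genes called in the digit 3 mice, 963 of 1166 had the same direction (82.6%), against 67.9% of all 14698 genes, and with the GC and length trends removed 498 of 770 (64.7%), against 55.5%. The trend on GC content was also present there, with a Spearman correlation of -0.43 across genes, so that the shared direction and the shared trend cannot be told apart before its removal.

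Endothelial genes were on the same side in both sets of mice. Over all 14698 genes, 8335 were above 0 in the digit 1 mice, 395 were called higher and 162 lower, and the median was 0.043. Of the endothelial genes 28 of 33 were above 0, 3 were called higher, and the median was 0.34, or 0.32 with 4 called with the trends removed; *Slco1a4* was at 0.43 (SE 0.25) and *Pecam1* at 0.39 (SE 0.21). Of the myelin genes 16 of 26 were below 0 and 3 were called lower, with a median of -0.11, and with the GC and length trends removed there, 1 was called lower and the median was -0.035; *Gal3st1* was at -0.21 (SE 0.19). *Olig2* was at -0.53 (SE 0.21), while the median of the lineage list went from -0.047 to 0.055 with the trends removed, and that of the respiratory chain from -0.13 to -0.045. The microglial median was 0.046 and that of the heat shock and unfolded protein genes 0.24, on the other side of 0.

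The difference between the 2 effects was tested gene by gene. It was called in 275 of 15420 genes (1.78%), fewer than the 5.0% that uniform p-values would give, and no gene had an adjusted p under 0.05. Of the 24 named genes, 19 had the same direction in the digit 1 mice (79.2%, against 67.9% of all genes). After the trends were removed 15 had it (62.5%, against 55.5%). *Hif3a* was at -0.46 (SE 0.37) in the digit 1 mice, and its difference of 1.53 (SE 0.46) was among those called. *Dmkn* was at 1.17 (SE 0.77), with a difference of -2.56 (SE 0.94). In both genes the direction was opposite in the digit 1 mice, where it rests on 1 placebo mouse.

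**Figure D5:**
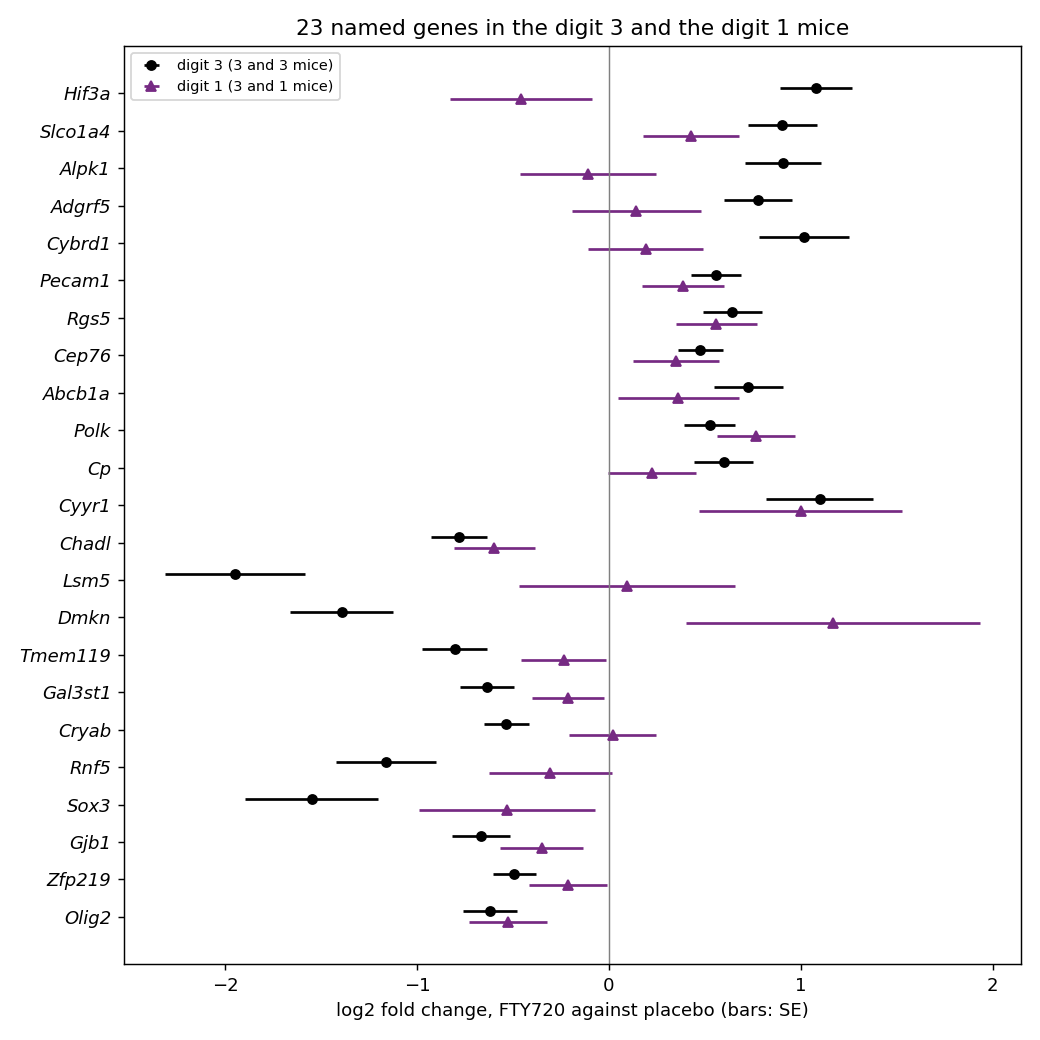
log2 fold change (FTY720 against placebo, bars show the SE of edgeR) of 23 of these genes in the digit 3 mice and in the digit 1 mice. The digit 3 values lie on the side by which the genes were chosen, and 18 of the 23 digit 1 values lie on the same side. Of all genes in both fits, 67.9% had the same direction.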

How the data were processed

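Brain RNA-seq of 10 mice was deposited by the authors as counts per gene, without normalization, and as FPKM values made from them. The submitters' processing notes name CASAVA 1.8, fastp, HISAT2 2.0.5, featureCounts 1.5.0-p3, DESeq2 1.20.0 and GRCm38; annotation release and strand setting are not given in the sources used here, and the library kit does not mark strand, so overlapping genes are uncertain. The 6 mice with the digit 3 (16172806 to 18303981 counts) were grouped by title. Genes were kept by filterByExpr, scaled by TMM and tested with edgeR 4.0.16 (R 4.3.3, quasi-likelihood, no covariate), with Benjamini-Hochberg adjustment over all 17656 genes. The digit 1 mice and the difference between digits came from 1 fit of 10 mice in 4 groups, where genes with fewer than 10 digit 1 counts were left out. FPKM served only as an alternative (limma 3.58.1). GC content is of the longest GENCODE M21 transcript, and length is the gene length given with the deposited counts. Trends were natural splines with 5 degrees of freedom. The script was tested on simulated data.

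The genes named were *Slc20a2*, the 12 higher and 12 lower with the smallest p, a mean of at least 1 CPM and groups that do not overlap, called members of the 50 gene lists (at most 4 in each direction), the first 3 markers of a cell type list, sex-linked and ribosomal RNA-like transcripts, and genes measured in the study's other experiments. *Xpr1*, *Pdgfb*, *AI464131*, *Gjc3*, *Hspa1b*, *Gfap*, further called members of the myelin, oligodendrocyte lineage, microglia, heat shock and PI3K lists, and the S1P receptors were named outside this rule after their values were seen. Some genes that the rule names are not reported here, though they count in the lists. The mice, the gene lists and the motifs were chosen with earlier results of these data known.

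Alternatives were DESeq2 1.42.0, limma-voom, limma on FPKM values (log2 after adding 0.1 or 1), RLE and upper-quartile scaling, other filters on low counts, all biotypes, each mouse left out, the leading digit of the mouse number as a covariate, a fit of 10 mice, a length trend removed, GC and length trends removed and, chosen after seeing the data, these trends with the leading digit and for the digit 1 mice.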

Additional observations from a re-analysis of the deposited data

Results flagged for a closer look

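In 15 of the named genes the fold change between FTY720 and placebo differed between the digit 3 and the digit 1 mice at an unadjusted p under 0.05; no gene passed the adjustment (edgeR, 275 of 15420 genes at an unadjusted p under 0.05), and the digit 1 side rests on 1 placebo mouse. Most of the named genes were chosen by their digit 3 values, which enter this difference. The choice thus favours large differences, and the number of such genes is no support for them. The value given is the digit 3 log2 fold change minus the digit 1 one. It was above 0 for *Hif3a* (1.53), *Sult1a1* (1.22), *Myh11* (1.16), *Alpk1* (1.02), *Cybrd1* (0.82) and *Nt5e* (0.66). It was below 0 for *Dmkn* (-2.56), *Lsm5* (-2.04), *H2-Ab1* (-1.63), *Fcrls* (-1.30), *Cd74* (-1.14), *Lhx1* (-1.11), *Manf* (-0.83), *Vegfa* (-0.63) and *Bcas1* (-0.59).

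Of these 15, *Hif3a*, *Alpk1*, *Cybrd1*, *Lsm5* and *Dmkn* were among the 24 named by the smallest p. *Lhx1*, a transcription factor of Purkinje and other neurons, was higher in the digit 3 mice at 0.35 (SE 0.13). The MHC class II genes *Cd74* and *H2-Ab1* were at 0.38 (SE 0.39) and 0.17 (SE 0.57) in the digit 1 mice.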

How the results depend on the processing

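The 1172 calls were 774 with the GC and length trends removed, 646 with the leading digit of the mouse number as a covariate, 637 with both and 1901 without a filter on low counts. Leaving out 1 mouse gave 323 to 3501 (323 without F3-609, 340 without P3-907, 759 without P3-612, 3501 without P3-904), and the other alternatives gave 990 to 1424. Adjusted p under 0.05 was reached by 5 genes with DESeq2 and by 134 without a filter, and by none in the other settings. In the digit 1 mice 605 calls became 378 to 738 with 1 mouse left out (378 without P3-907), and 27 genes passed the adjustment without a filter. The difference between digits had 275 calls, 168 (without P3-907) to 417 (without F1-624) with 1 mouse left out, 423 with the trends removed and 422 without a filter, where 26 passed the adjustment. The causes were not tested.

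Of 113 named genes, 6 changed direction in 1 setting each. Within the mice whose number begins with 9, *Flt1* was at -0.071, *Rpl35a* at 0.10, *Rps15* at 0.097 and *Rps9* at 0.033. *Slc32a1* was at 0.0038 with the trends removed, and *Gria3* at -0.024 with the trends removed and the leading digit as a covariate. Of 112 called, 54 were still called without F3-609, 58 without P3-907, 68 without P3-612, 70 without F3-612, 74 with the trends removed and 94 with limma on FPKM. Of the list medians under these settings, 891 moved by less than the spread between mice and 58 by more.

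No paired analysis was possible because the groups share only the mouse number 612. Depth limits genes of a few counts, such as *Cd3e* and the selectins, and 3 mice a group limit the rest.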

Other observations

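Some genes that respond to glucocorticoids and some of the circadian clock were called higher with FTY720. Of 15 glucocorticoid-responsive genes tested, 3 were called higher (20%, against 2.96% of all genes) and none lower, and 5 with the GC and length trends removed, with a median of 0.11: *Sgk1* at 89.5, 101 and 105 CPM with FTY720 and 70.2, 54.5 and 82.8 CPM with placebo, *Plin4*, a lipid droplet protein, at 9.36, 3.75 and 15.9 CPM and 2.76, 3.96 and 4.48 CPM, and *Sult1a1*, a sulfotransferase, at 12.2, 10.3 and 23.8 CPM and 10.2, 7.86 and 8.51 CPM. F3-908 was the highest mouse in all 3, and without it 1 was called. *Fkbp5*, a marker of the same response, was at 0.36 (SE 0.20). Of 15 clock genes, 2 were called higher (13.3%) and 12 were above 0. *Nr1d2*, a repressor of the clock, was called at 244, 204 and 198 CPM against 166, 168 and 162 CPM, and *Per3* at 73.4, 63.5 and 63.5 CPM against 43.9, 58.7 and 48.2 CPM, both without overlap, with a median of 0.20; 5 were called higher with the GC and length trends removed. The hour at which the mice were killed is not given in the sources used here.

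Of 16 general neuron genes 4 were called lower (25.0%, against 5.0% of all genes), *Rbfox3*, *Thy1*, *Tubb3* and *Syp*, at -0.28, -0.31, -0.34 and -0.42, and 1 with the trends removed. None was called without F3-609, without P3-907 or with the leading digit of the mouse number, which follows sex, as a covariate. Of 11 cortical, 13 inhibitory, 11 striatal, 11 hypothalamic and 7 monoamine neuron genes, 2, 2, 1, 1 and 1 were called lower (18.2%, 15.4%, 9.09%, 9.09% and 14.3%) and none higher, with medians of -0.11, -0.25, -0.23, -0.54 and 0.15. With the trends removed 1 striatal gene was the only call in these 5 lists, but not *Adora2a*, the striatal gene called as fitted. *Adora2a* was at -0.50 as fitted and at -0.27 with the trends removed. Without P3-907 no gene of these lists was called. Of 13 Purkinje cell genes 2 were called higher (15.4%, against 2.96% of all genes), *Lhx1* among them, and 2 with the trends removed. None was called without F3-609, F3-612 or P3-907 or with the leading digit as a covariate. No thalamic, olfactory, choroid plexus, fibroblast, red blood cell or pituitary gene was called by edgeR at an unadjusted p under 0.05. *Jun* was the only one of 16 immediate early genes called, lower at -0.55 (SE 0.14); *Foxj1*, a factor of ciliated ependymal cells, and *Cd209f*, a lectin of border macrophages, were called lower at -0.52 (SE 0.15) and -1.60 (SE 0.50), each the only call among 10 and 7 genes tested. The call of *Foxj1* was lost with the trends removed and that of *Cd209f* without P3-612. Of 24 cholesterol, 37 proteasome and 15 GABA-A receptor genes none was called as fitted. In 23 glutamate receptor genes *Gria3* was called higher and *Grik5* lower (4.35% each, against 2.96% and 5.0% of all genes), and neither with the trends removed. *Nid2* was called lower among 17 basement membrane genes (5.88%, against 5.0% of all genes), with no call without F3-609, F3-612 or P3-907. *mt-Atp8* was lower among 13 mitochondrial genes (7.69%, against 5.0%). *Snhg11*, among 8 nuclear noncoding RNAs (12.5%, against 2.96%), was higher as fitted but not with the trends removed.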
